A study of Mus musculus with 4 samples.

Results

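The glycolysis and pentose phosphate genes are a set of 33 genes chosen by name: the enzymes of glycolysis, the glucose and lactate transporters, 3 pyruvate dehydrogenase kinases and 3 pentose phosphate enzymes. A probe set was counted where the platform annotation gives it exactly 1 of these symbols. By this rule 30 of the 33 genes were found, among 18194 genes named on the array, through 64 probe sets. Gpi1, Eno1 and G6pdx were not matched by the annotation used here. Gapdh was matched only through the 3 AFFX control probe sets, which stayed out of the tests. Of the other 29 genes, 27 had at least 1 probe set bright enough to be kept, and Aldoc and Pgam2 did not.

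The cells were satellite cells, the stem cells that repair skeletal muscle, isolated from the muscle of 10-week-old mice and used without culture. All mice carried 1 Pax7 allele with tamoxifen-dependent Cre (written Pax7-CreERT2 or Pax7Cre/+ in the labels) and 2 Rosa-YFP alleles (Rosa-YFP/YFP), and all received tamoxifen. Cre activity follows the Pax7 locus, so recombination and the YFP reporter mark cells that expressed Pax7. Cells with YFP were collected on a cell sorter 2 weeks after that treatment. Control mice were Calcr +/+, and conditional knockout (cKO) mice were Calcr flox/flox, in which Cre deletes the calcitonin receptor gene. Each group had 2 biological replicates with 1 array each. The labels call them biological replicates and do not say how many mice each holds, so the spread between arrays may be partly technical. The genotype comparison asks whether loss of Calcr goes with a different level of these transcripts. The second comparison sets the 2 arrays numbered 1 against the 2 numbered 2.

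Glycolysis splits glucose into pyruvate in the cytosol and yields ATP, and lactate dehydrogenase turns pyruvate into lactate where it is not burned in mitochondria. The pentose phosphate pathway branches off at glucose 6-phosphate and supplies NADPH and ribose for nucleotides. Quiescent satellite cells are known for low metabolic activity, and glycolysis is known to increase when they activate. Several enzymes exist as a form found widely and a form typical of the muscle fibre, such as Pgam1 and Pgam2 or Eno1 and Eno3.

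Values are MAS5 signals, the linear brightness of a probe set. Arrays number 4 in all, which limits the precision. Median signals of the arrays ran from 57.8 on cKO replicate 2 to 70.4 on control replicate 1. For the Gapdh controls, signal at the 3' end over that at the 5' end ran from 1.54 on control replicate 1 to 1.71 on cKO replicate 2. Calcr signals were 1268 and 1424 in control, with 568 and 684 in cKO (log2 difference -1.11, SE 0.25, limma, adjusted p = 0.99999). Whether its probes lie within the deleted part was not checked. All 10 satellite cell markers were kept, among them Pax7 at 2319 and 3647 in control and 2170 and 2434 in cKO.

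Between genotypes, no glycolysis or pentose phosphate gene passed the test. Most members lay slightly lower in cKO: 22 of 27 had a difference below 0 and 5 above it, where 57.3% of all genes lay below 0 and 42.7% above. Their median log2 difference was -0.18, beside -0.04 over all 10140 genes with a kept probe set. Each gene is represented by its brightest kept probe set. The limma test, with Benjamini-Hochberg adjustment over all 22519 kept probe sets, called 0 of 27 members at an adjusted p under 0.05, and 0.0% of all genes. The adjusted limma p was 0.99999 for every member. At an unadjusted limma p under 0.05 there were also 0 members, against 0.72% of genes. The genotypes did not overlap for 3 members, Tpi1, Bpgm and Pdk3, all lower in cKO, as were 12.1% of genes. Higher in cKO without overlap were 0 members, against 8.53% of genes. A missed threshold does not show equal levels, and this fit did not call Calcr either. Without a block, differences between the replicate numbers stay within its spread.

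The lower values in cKO were seen between the arrays numbered 2. Between the arrays numbered 1, 14 members were higher in cKO and 13 lower, with a median of 0.05 beside 0.09 over all genes, of which 61.7% were higher. Between the arrays numbered 2, 21 of 27 were lower in cKO, with a median of -0.43 beside -0.19 over all genes, of which 67.8% were lower. Replicate 2 of cKO was the lowest of the 4 arrays for 18 members, against 36.9% of all genes. Control replicate 2 was the highest for 12 members, against 39.8%. Without cKO replicate 2 the members' median genotype difference was -0.01. It was -0.37 without cKO replicate 1, -0.25 without control replicate 1 and -0.11 without control replicate 2. Relative to all genes the same 4 medians were -0.04, -0.26, -0.12 and -0.14. Quantile normalization gave a pooled value of -0.13, beside 0.02 over all genes. With arrays centred on their median signal, which moves every gene alike, it was -0.08, beside 0.05. On cKO replicate 2 the median signal of the array was lowest and the Gapdh 3'/5' ratio highest; their part in the members' low values was not tested. The 10 satellite cell markers summed to 29619 on control replicate 2 and to 21093, 21375 and 22762 on control replicate 1, cKO replicate 1 and cKO replicate 2. All 10 were highest on control replicate 2, and the part of that in the members' values was not tested. The list includes Calcr, the gene deleted in cKO, so its rank and its part in the sums are not free of genotype.

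**Figure D1:**
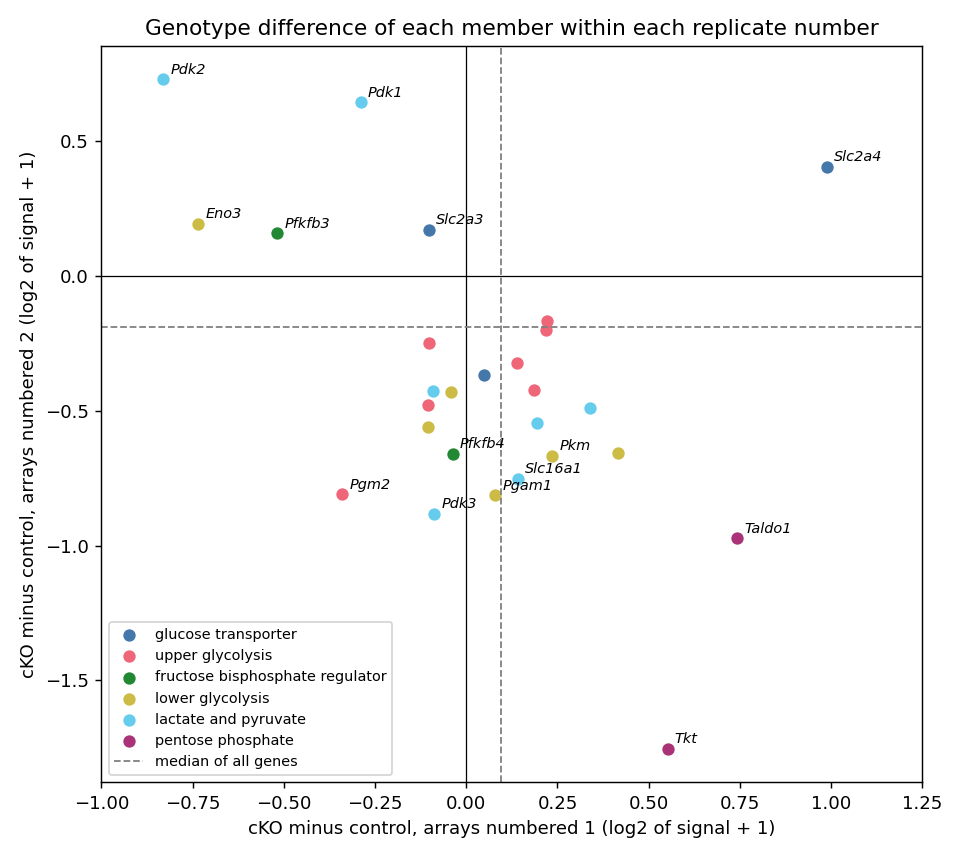
Genotype difference of each of the 27 members, as cKO minus control in log2 of signal + 1, between the arrays numbered 1 (horizontal axis) and those numbered 2 (vertical axis). Colours mark the role of the gene and dashed lines the medians of all genes, at 0.09 and -0.19. The points spread to both sides of 0 along the horizontal axis, while 21 of 27 lie below 0 on the vertical axis.

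Glucose enters the cell through the facilitated transporters of the Slc2a family. Slc2a1, which encodes the widespread transporter GLUT1, read 3478 and 3463 in control and 3599 and 2685 in cKO. Its 3 kept probe sets shared a low value on cKO replicate 2, and their genotype differences ran from -0.26 to -0.09. Slc2a3, for GLUT3, gave 834 and 1064 in control and 777 and 1198 in cKO at the brightest of its probe sets. Thus the replicates numbered 2 were higher in both genotypes, with replicate 1 minus replicate 2 at -0.35 in control and -0.62 in cKO on the log2 scale. The difference of the replicates numbered 1 from those numbered 2 was -0.49 (SE 0.21, limma, adjusted p = 0.339). A pair of dimmer Slc2a3 probe sets read differently by genotype: 123 and 118 in control versus 71.2 and 101 in cKO for one, and 88.3 and 86.9 against 51.8 and 70.5 for the other. In that pair the genotypes did not overlap and cKO was lower, while in the brighter pair they overlapped. Slc2a4 encodes GLUT4, the insulin-responsive transporter of muscle and fat. It read 77.2 and 57.9 in control and 154 and 77.0 in cKO, a difference of 0.70 (SE 0.47), the highest of any member. It was 0.99 between the arrays numbered 1 and 0.41 between those numbered 2, and ran from 0.20 to 1.19 with 1 array left out. The genotypes overlapped, as cKO replicate 2 and control replicate 1 were almost level. The second Slc2a4 probe set, which was not kept, differed by 0.12. It read 69.9 and 33.4 in control and 53.0 and 52.6 in cKO. Its difference was -0.39 between the arrays numbered 1 and 0.64 between those numbered 2.

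Hexokinase traps glucose as glucose 6-phosphate. Hk1 read 553 and 720 in control and 644 and 641 in cKO, so the cKO arrays lay between the control arrays. Its other kept probe set read 436 and 531 against 549 and 318. Hk2, the inducible form, read 1355 and 1210 in control versus 1259 and 868 in cKO (difference -0.29, SE 0.26). Here cKO replicate 2 was lowest and the other arrays lay close together. Pgm2, a phosphoglucomutase gene, read 633 and 414 in control versus 500 and 236 in cKO, a difference of -0.57 (SE 0.44). Within each number cKO was the lower array, and within each genotype replicate 2 was.

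Phosphofructokinase is the committed step of glycolysis, and its liver (Pfkl), muscle (Pfkm) and platelet (Pfkp) subunits come from separate genes. Pfkl read 238 and 232 in control and 262 and 186 in cKO. Pfkm read 182 and 250 in control, and 212 and 217 in cKO, between the control values. On these probe sets neither gene differed by genotype beyond the spread of its own arrays (differences -0.09, SE 0.35, and 0.01, SE 0.35). The other kept Pfkl probe set read 128 and 130 in control and 126 and 85.6 in cKO. There cKO was lower without overlap (difference -0.31, SE 0.39). Pfkp read 1440 and 996 in control and 1341 and 839 in cKO. Both arrays numbered 1 lay above both numbered 2, with a difference of 0.60 (SE 0.20, limma, adjusted p = 0.206). Its other kept probe sets differed by 0.51 and 0.14 in the same direction. The aldolase gene Aldoa read 3607 and 4326 in control and 4105 and 3229 in cKO. All 5 kept Aldoa probe sets lay lower in cKO on average, with log2 differences from -0.42 to -0.12; all 5 have names ending in _x_at, which marks probes that may match related sequences. Aldoc, the brain form, was not kept: its brighter probe set read 3.70, 3.48, 10.6 and 1.87 on control replicates 1 and 2 and cKO replicates 1 and 2.

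**Figure D2:**
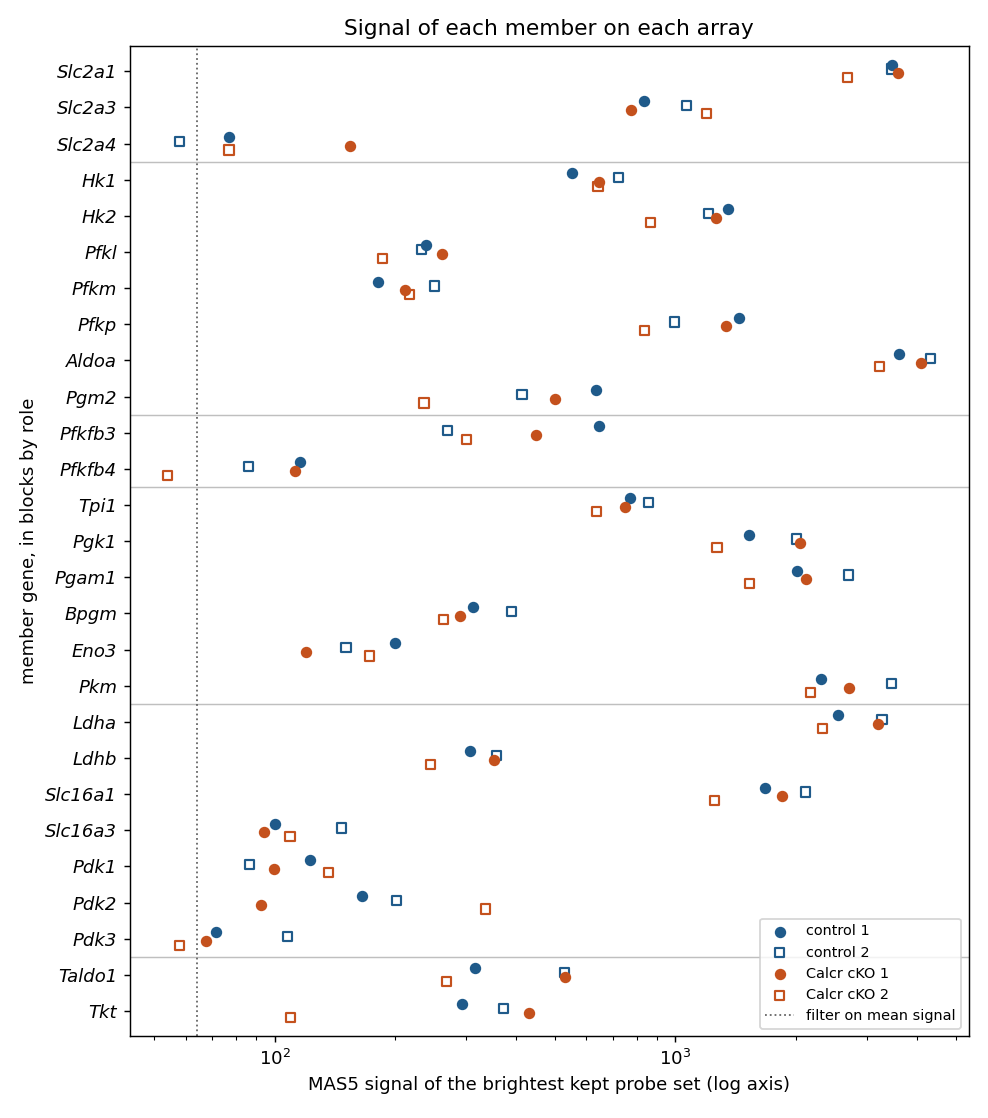
MAS5 signal of the 27 members on each of the 4 arrays (log axis), in blocks by role; colour marks the genotype, filled circles replicate 1 and open squares replicate 2, and the dotted line is the filter on the mean. The open orange squares of cKO replicate 2 are the leftmost points for 18 of the 27 genes, and Tkt and Pgm2 show it furthest from the other 3 arrays.

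Pfkfb3 and Pfkfb4 encode bifunctional enzymes that set the level of fructose 2,6-bisphosphate, the strongest activator of phosphofructokinase. Pfkfb3 read 643 and 270 in control and 449 and 302 in cKO. The arrays numbered 1 were thus higher in both genotypes, 1.88-fold on the log2(signal + 1) scale (difference 0.91, SE 0.28, limma, adjusted p = 0.163). The second Pfkfb3 probe set read 216 and 135 in control and 224 and 91.6 in cKO, a difference of 0.98 by number. Of all members, Pfkfb3 lay furthest to the side of the arrays numbered 1. Pfkfb4 followed the same order at a lower signal, 115 and 86.2 in control and 113 and 54.2 in cKO (difference 0.73 by number, SE 0.36, limma, adjusted p = 0.409). By genotype the differences were -0.18 for Pfkfb3 and -0.35 for Pfkfb4, and the arrays overlapped for both.

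Pfkfb3 and Pdk2, the members furthest apart between the replicate numbers in either direction, are shown with the 250 bases before their annotated start sites (RefSeq, build GRCm38.p6, 5′ to 3′ along the gene, minus strand). They were chosen after their values were seen. Capitals mark ACGTG or its reverse complement CACGT, the core of the element bound by hypoxia-inducible factors and shared with other factors; where both overlap they spell CACGTG. The windows are chr2:11553930-11554179 and chr2:11502091-11502340 for the start sites of Pfkfb3, and chr11:95041372-95041621 and chr11:95040876-95041125 for those of Pdk2.
Pfkfb3 start site 1: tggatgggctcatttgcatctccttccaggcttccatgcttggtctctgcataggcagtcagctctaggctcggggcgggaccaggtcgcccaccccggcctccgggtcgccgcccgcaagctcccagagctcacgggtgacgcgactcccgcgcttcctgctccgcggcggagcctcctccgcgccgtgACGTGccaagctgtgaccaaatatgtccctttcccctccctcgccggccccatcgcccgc
Pfkfb3 start site 2: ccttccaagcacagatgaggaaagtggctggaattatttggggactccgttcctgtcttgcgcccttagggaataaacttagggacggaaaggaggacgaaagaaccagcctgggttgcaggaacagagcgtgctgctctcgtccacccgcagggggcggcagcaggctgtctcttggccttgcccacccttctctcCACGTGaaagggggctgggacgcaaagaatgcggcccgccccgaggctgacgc
Pdk2 start site 1: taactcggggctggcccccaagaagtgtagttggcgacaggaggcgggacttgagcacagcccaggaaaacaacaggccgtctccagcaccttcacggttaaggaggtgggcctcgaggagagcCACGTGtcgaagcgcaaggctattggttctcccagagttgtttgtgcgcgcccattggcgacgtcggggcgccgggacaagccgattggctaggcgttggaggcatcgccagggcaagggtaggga
Pdk2 start site 2: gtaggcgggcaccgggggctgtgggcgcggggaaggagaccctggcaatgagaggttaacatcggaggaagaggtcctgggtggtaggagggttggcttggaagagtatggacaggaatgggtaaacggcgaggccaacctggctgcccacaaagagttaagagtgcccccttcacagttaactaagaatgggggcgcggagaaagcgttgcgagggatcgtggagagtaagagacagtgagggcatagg

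Both Pfkfb3 windows and the first of Pdk2 held the core. The 2 genes lay on opposite sides by replicate number, and a link of the core to those values was not tested. Promoter windows were found for 31 of the 33 genes, all but Slc2a3 and Slc2a4. Among the 31 are Gpi1, Eno1, G6pdx, Gapdh, Aldoc and Pgam2, whose expression was not tested here. Windows were not matched for base composition. Of the 45 windows of the 31 genes, 17 held the core on either strand (37.8%), beside 16.6% of all 32851 windows. Such a match describes the letters of the window and not a bound site.

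In lower glycolysis, triose phosphates become pyruvate. Tpi1, triose phosphate isomerase, read 771 and 856 in control versus 749 and 636 in cKO, a difference of -0.24 (SE 0.26). On this brightest of its 3 kept probe sets the arrays did not overlap, although the gap between control replicate 1 and cKO replicate 1 was small. Another did not overlap either, at 513 and 557 in control and 493 and 461 in cKO. The remaining one did, at 588 and 782 in control and 716 and 520 in cKO. The AFFX probe set at the 3' end of Gapdh, glyceraldehyde 3-phosphate dehydrogenase, read 4554 and 5625 in control and 5156 and 4901 in cKO, with the cKO arrays between the control arrays. The middle probe set read 2995 and 4143 in control and 3332 and 2955 in cKO, and the one at the 5' end 2967 and 3536, and 3314 and 2872. On both of these, control replicate 2 was highest and cKO replicate 2 lowest. Pgk1, phosphoglycerate kinase, read 1530 and 2002 in control and 2042 and 1270 in cKO. Its genotype difference was 0.42 between the arrays numbered 1 and -0.66 between those numbered 2. Pgam1, phosphoglycerate mutase, read 2010 and 2697 against 2122 and 1533 (difference -0.37, SE 0.24). Pkm, pyruvate kinase of muscle and most other tissues, read 2302 and 3454 against 2710 and 2176 (difference -0.22, SE 0.24). For Pgam1 and Pkm alike, control replicate 2 was the highest array and cKO replicate 2 the lowest. That order held for 9 of the 27 members, against 14.6% of all genes.

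Bpgm makes 2,3-bisphosphoglycerate, best known from red blood cells. On its brightest probe set it read 313 and 389 in control versus 291 and 263 in cKO (difference -0.33, SE 0.32). The next probe set read 347 and 373 against 253 and 234, a difference of -0.56 (SE 0.31), and its 2 control arrays lay well above the 2 cKO arrays. The dimmest kept probe set, at 71.8 and 93.7 against 84.1 and 80.2, differed by 0.00. Of 6 red blood cell markers 3 were named and 0 kept, and their summed signal was 56.3 and 68.1 in control and 74.6 and 59.1 in cKO.

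Eno3 and Pgam2 are the enolase and phosphoglycerate mutase of the adult muscle fibre. Eno3 read 200 and 151 in control and 120 and 173 in cKO. Pgam2, not kept, read 78.8 and 13.7 in control and 57.3 and 79.3 in cKO. Control replicate 1 and cKO replicate 2 were the upper pair of arrays for both genes. Muscle fibre markers, of which 17 of 18 were kept, summed to 6684 and 3615 in control and 3907 and 5303 in cKO, with the same upper pair; their part in the values of Eno3 and Pgam2 was not tested. Acta1, the actin of the muscle fibre, read 881 and 478 in control and 486 and 689 in cKO.

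Lactate dehydrogenase subunits come from Ldha and Ldhb. Ldha read 2538 and 3276 in control and 3208 and 2333 in cKO, so the genotype difference was 0.34 between the arrays numbered 1 and -0.49 between those numbered 2 (pooled -0.08, SE 0.22). Ldhb read 308 and 358 in control and 352 and 245 in cKO. The lactate and pyruvate carrier gene Slc16a1 (MCT1) read 1668 and 2113 in control and 1841 and 1254 in cKO, a pooled difference of -0.31 (SE 0.26). Slc16a3 (MCT4), the carrier of highly glycolytic cells, read 100 and 147 in control and 94.1 and 109 in cKO. On their brightest probe sets none of these 4 genes separated the genotypes, and all except Slc16a3 were lowest on cKO replicate 2.

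Pyruvate dehydrogenase kinases hold back the entry of pyruvate into the citric acid cycle. Pdk1 read 122 and 86.7 in control and 99.9 and 136 in cKO, and its 3 kept probe sets did not share a sign by genotype. Pdk2 read 165 and 202 in control and 92.3 and 335 in cKO. Here cKO replicates 1 and 2 were the lowest and the highest array (replicate 1 minus replicate 2 was -1.85 on the log2 scale), and the control arrays lay between them. By replicate number Pdk2 differed by -1.07 (SE 0.37, limma, adjusted p = 0.226), the only member at least 2-fold apart. Pdk3 was dim, at 71.6 and 108 in control versus 67.3 and 58.0 in cKO (difference -0.49, SE 0.43), and its arrays did not overlap by genotype.

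The pentose phosphate enzymes Tkt and Taldo1 move sugar units between the pathway and glycolysis. Tkt, transketolase, read 294 and 373 in control, 431 on cKO replicate 1 and 110 on cKO replicate 2. Its genotype difference was 0.55 between the arrays numbered 1 and -1.75 between those numbered 2, the widest gap of any member (pooled -0.60, SE 0.61). A probe set that was not kept had the same shape, at 82.1, 91.0, 96.0 and 14.4, while the dimmest one read 4.62, 7.38, 13.3 and 47.9. Taldo1, transaldolase, read 317 and 528 in control and 531 and 269 in cKO, with differences of 0.74 and -0.97 within the numbers. Both genes were lowest on cKO replicate 2. Tkt was highest on cKO replicate 1, where Taldo1 was level with control replicate 2.

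Between replicate numbers, 0 of 27 members had an adjusted limma p under 0.05, against 2.82% of all genes (2.55% higher on the arrays numbered 1). Of the members 18 lay above 0 and 9 below, where 47.1% of genes lay above and 52.9% below. At an unadjusted limma p under 0.05 there were 5, against 13.5% of genes: Pfkfb3, Pfkp and Pgm2 with higher values on the arrays numbered 1, and Pdk2 and Slc2a3 with lower ones. Both arrays numbered 1 lay above both numbered 2 for 8 members (21.0% of genes) and below them for 4 (22.4%). The 8 were Slc2a1, Slc2a4, Hk2, Pfkl, Pfkp, Pgm2, Pfkfb3 and Pfkfb4; the 4 were Slc2a3, Pfkm, Slc16a3 and Pdk2. Of the 6 kept genes of lower glycolysis, 0 separated the numbers. The median over members was 0.05 beside -0.03 over all genes. It turned to -0.14 with arrays centred on their median, where the median of all genes was -0.21; centring moves every gene alike. With quantile normalization it was 0.07, beside -0.10 over all genes. Without control replicate 2 the median was 0.40, beside 0.07 over all genes, and limma called 4 members (Pfkp, Pgm2, Pdk2 and Tkt) and 8.29% of genes. Without cKO replicate 2 it was -0.17, beside -0.13, and limma called 1 member, Pfkfb3, and 6.55% of genes. Without control replicate 1 it was 0.18, beside 0.04, with 0 members and 1.4% of genes called. Without cKO replicate 1 it was 0.04, beside -0.08, with 0 members and 1.39% of genes called.

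**Figure D3:**
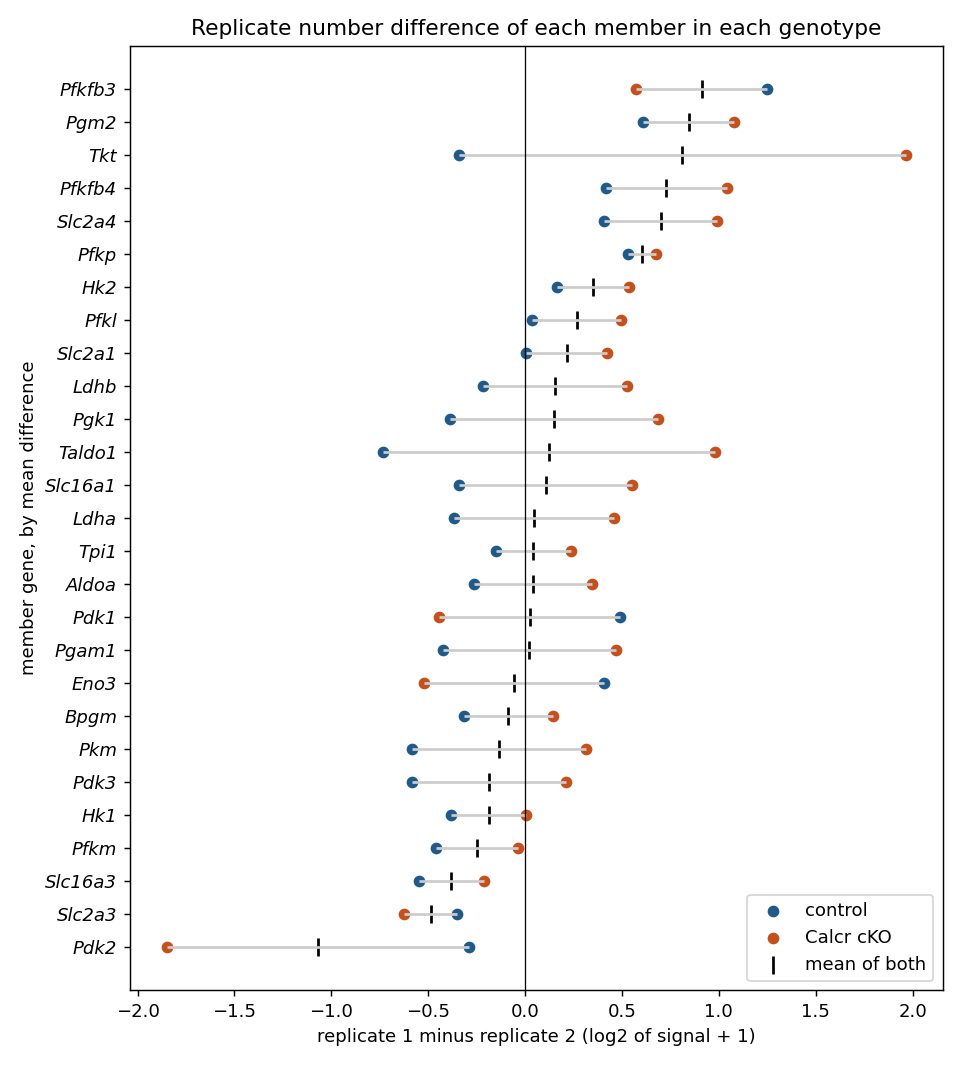
Difference of replicate 1 minus replicate 2 in log2 of signal + 1 for each of the 27 members, in control (blue), in cKO (orange) and as their mean (black bar), ordered by the mean. For 13 genes, Tkt near the top among them, control lies below 0 and cKO above it, and the 12 genes whose numbers do not overlap have both points on 1 side of 0.

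Within genotypes the replicates differed in opposite directions for 15 of 27 members, and for 4718 of all 10140 genes. For 13 of 27 members, control replicate 2 was above control replicate 1 and cKO replicate 2 below cKO replicate 1, against 36.2% of all genes. These included 5 of the 6 kept genes of lower glycolysis (Tpi1, Pgk1, Pgam1, Bpgm and Pkm), with Ldha, Ldhb, Slc16a1, Taldo1 and Tkt. The median of replicate 1 minus replicate 2 was -0.29 in control and 0.46 in cKO, beside -0.17 and 0.13 over all genes.

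Endothelial transcripts moved with the replicate number in both genotypes. Of 16 markers 15 were kept, and all 15 were higher on both arrays numbered 1, against 21.0% of all genes. The test called 13 of them, against 2.82% of all genes. Signals of all 16 summed to 10867 for control and 9960 for cKO among the arrays numbered 1, and to 1343 and 1534 among those numbered 2. Tek, which differed least of the 15 between the numbers (log2 difference 0.94), was not called. It read 832 and 579 on the arrays numbered 1 and 295 and 444 on those numbered 2. Cdh5, which encodes VE-cadherin, read 1044 and 1060 against 79.7 and 110. Among pericyte and smooth muscle markers 10 of 12 were kept. The test called 5 of them higher on the arrays numbered 1, against 2.55% of all genes. Summed signals of these markers were 17139 and 19376 on replicates 1 and 11119 and 8875 on replicates 2. Pfkfb3, Pfkp and Pgm2 lay on the same side as these markers; the part of endothelial or pericyte RNA in their values was not tested. In whole sorted samples, fewer cells of a type and less RNA per cell cannot be told apart. Leukocyte markers, 6 of 14 kept, summed to 1314 and 2497 in control and 1602 and 649 in cKO, lowest on the array where Tkt and most members were lowest, and their part in that was not tested. For the fibro-adipogenic markers, 7 of 10 kept, the sums were 20239 and 23528 in control and 19870 and 21599 in cKO, and for Schwann cells, 2 of 6 kept, 1558 and 213 against 1424 and 103. No array had a signal of 0 for any listed marker, which does not show presence, since markers that were not kept also read above 0.

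Of 28 further glycolysis and pentose phosphate genes, 25 were named and 16 kept. By genotype 5 were higher and 11 lower (median -0.10), against 42.7% and 57.3% of all genes. Limma called 0, with 0 at an unadjusted p under 0.05, against 0.72% of genes. By replicate number 5 were higher and 11 lower on the arrays numbered 1 (median -0.15), against 47.1% and 52.9% of all genes. Limma called 0, against 2.82%, and 3 had an unadjusted limma p under 0.05, against 13.5%. These were the pentose phosphate genes H6pd, at 417 and 682 in control and 312 and 692 in cKO, and Pgls, at 197 and 541 against 246 and 303, and the fourth kinase gene Pdk4, at 3068 and 3810 against 2649 and 3859. All 3 were higher on the arrays numbered 2. Glycogen genes (8 of 12 kept) had a median of -0.17 by genotype and 0.07 by number, with limma calling 0 in both. At an unadjusted limma p under 0.05 there were 0 and 1, against 0.72% and 13.5% of all genes.

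Pyruvate entry and the citric acid cycle follow glycolysis in the mitochondrion. Of 28 such genes 26 were kept, with 14 higher and 12 lower in cKO (median 0.02). Limma called 0 by genotype and 0 by number. At an unadjusted limma p under 0.05 there were 0 in both, against 0.72% and 13.5% of all genes. Between the arrays numbered 1, 25 of 26 were higher in cKO, against 61.7% of all genes. Between those numbered 2, 23 of 26 were lower, against 67.8%. For 20 of the 26, control replicate 2 was above control replicate 1 and cKO replicate 2 below cKO replicate 1. That order was seen for 13 of the 27 members and 36.2% of all genes. Hypoxia factors and their targets outside glycolysis (18 of 20 kept) had a genotype median of 0.00 with 0 called by limma, also at an unadjusted p under 0.05. By number 14 were higher and 4 lower on the arrays numbered 1, against 47.1% and 52.9% of all genes. Without overlap were 8 and 2 of them, against 21.0% and 22.4%. The limma test called 1, against 2.82%, and gave 4 an unadjusted p under 0.05, against 13.5%. The called gene was Epas1, the HIF-2 alpha gene, at 4214 and 1364 in control and 4398 and 1765 in cKO (limma, adjusted p = 0.000778). Egln3, an oxygen-sensing hydroxylase gene, was at 133 and 68.8 in control and 130 and 69.1 in cKO (limma, adjusted p = 0.223). Both genes had the 2 arrays numbered 1 close together and far above those numbered 2, the side on which the endothelial and pericyte markers were higher; the part of those cells in the values was not tested. Hif1a read 1187 and 1177 in control and 1233 and 963 in cKO, a genotype difference of -0.12.

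**Figure D4:**
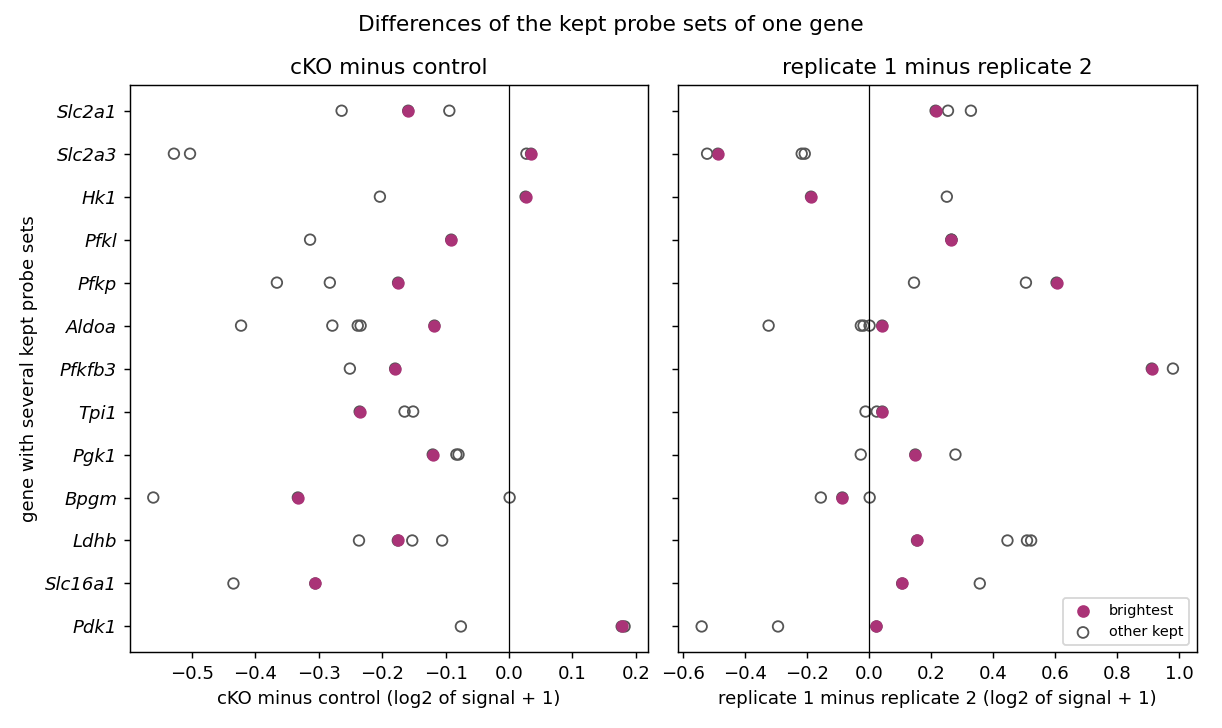
Log2 differences of all kept probe sets for the 13 members with several, by genotype (left) and by replicate number (right); the filled point is the brightest probe set, used for the gene. The probe sets of a gene share a sign for 9 of 13 genes by genotype and for 7 of 13 by number, and by genotype those of Slc2a3 and Bpgm lie furthest apart.

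Probe sets of 1 gene did not always run together. Of 13 members with several kept probe sets, 9 had 1 sign by genotype, and the exceptions were Slc2a3, Hk1, Bpgm and Pdk1. By replicate number 7 had 1 sign, among them Slc2a1, Pfkl, Pfkp, Pfkfb3 and Ldhb. For Ldhb the brightest probe set differed least, 0.15 against 0.45 to 0.52 for the other 3, on which both arrays numbered 1 lay above both numbered 2.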

How the data were processed

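Each sample was hybridised to 1 array, and the table holds MAS5 signal intensities on a linear scale, computed by the authors per the submitters' processing notes; no source used here states the scaling target. Symbols were those of the platform annotation: 34958 probe sets had 1 symbol, 932 several and 9211 none, out of 45101. Probe sets with several symbols named no gene. Values were analysed as log2(signal + 1), so fold changes of dim probe sets are understated, with no further scaling. The 64 AFFX controls were not tested, nor were probe sets whose log2 value, averaged over the arrays, fell short of the median of that average (signal 63.9). Both comparisons used limma 3.58.1 in R 4.3.3 (lmFit, eBayes with an intensity trend) without a block and were 2-sided. Means and medians over genes use the brightest kept probe set. Summed signals of a marker list cover all its named genes, each at its brightest probe set, kept or not. Named genes were all members, Calcr, up to 4 genes of each pathway list with the smallest limma p, and, of each marker list, genes among its 4 brightest. The members and lists were chosen with earlier results of these data known. Alternatives were other scalings, pseudocount, filters, variance model, block, probe set choice and leaving out each array.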

Additional observations from a re-analysis of the deposited data

How the results depend on the processing

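No member was called by genotype under any alternative run. The members' median genotype difference stayed below 0 throughout, from -0.37 to -0.01 with 1 array left out. By replicate number 0 to 4 members were called and the median ran from -0.17 to 0.40 with 1 array left out, and it was -0.14 with arrays centred on their median. Over all probe sets, leaving out 1 array gave 0 to 5 calls by genotype and 252 to 1755 by number, against 0 and 521; the filter at the 75th percentile gave 141 by number, where fewer probe sets were tested. The replicate block gave 5 calls by genotype, 0 of them members, and changed no call of a member. Same-numbered arrays deviated together (correlation 0.43 over probe sets), but the labels do not say that the numbers pair samples. Of single members, 9 of 27 kept their sign by genotype and 13 of 27 by number whichever array was left out. With only 1 array left in a group, the fit takes its spread from the other. By genotype the standard error was largest for Tkt (0.61) and Pdk2 (0.59), both well above the filter.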
